A study of Mus musculus with 10 samples.

Results

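Expression of 10 genes of the Toll-like receptor system was followed in primary mouse hepatocytes exposed to palmitate or linoleate. They were chosen by name, with earlier results of these data known. They comprise 6 receptors (Tlr1, Tlr2, Tlr3, Tlr4, Tlr5 and Tlr6), the co-receptors Cd14 and Ly96, and the adaptors Myd88 and Ticam1. All 10 were listed among the 18055 genes of the deposited tables, and all 10 passed the filter on low counts that kept 14097 genes for testing. Hepatocytes isolated from wild-type C57BL/6 mice by collagenase perfusion were studied in 5 groups of 2 libraries each. The Vehicle group received no fatty acid, PA received 200 µM palmitate (a saturated fatty acid) and LA received 12 µM linoleate (a polyunsaturated fatty acid), each for 24 h. PA+NTP and LA+NTP received the same fatty acids after 1 h with Neurotropin (NTP, an analgesic extract of inflamed rabbit skin) at 0.4 NU/mL. The fatty acid doses were not matched, so a difference between PA and LA is a difference between 200 µM of one and 12 µM of the other. The labels do not say whether the 2 libraries of a group came from separate cultures or mice, and the p-values below measure the spread between libraries, which may be technical. No NTP group without a fatty acid was among the samples.

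Toll-like receptors recognise microbial products and signal through a cytoplasmic TIR domain. TLR4 recognises bacterial lipopolysaccharide together with MD-2 (the product of Ly96), after CD14 has delivered the ligand, and TLR2 pairs with TLR1 or TLR6 to recognise bacterial lipoproteins. Most of these receptors signal through MyD88 to NF-kB, whereas TLR3, which recognises double-stranded RNA, uses TRIF (the product of Ticam1), and TLR4 uses both adaptors. In the liver, Kupffer cells, the resident macrophages, respond strongly to TLR4 ligands, while hepatocytes express TLRs at lower levels and take up lipopolysaccharide from the blood.

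Library totals ranged from 13142588 expected counts (PA replicate 1) to 60046937 (LA+NTP replicate 2). Alb, a secreted hepatocyte protein, stood at 1929 to 2818 FPKM in the 10 libraries, whereas Cps1, the urea cycle enzyme that is abundant in liver, stood at only 1.52 to 4.61 FPKM. FPKM is a level per transcript length and library size. Of 12 Kupffer cell and macrophage markers, all were listed and 10 were tested. In this list Clec4f at 0.03 to 0.29, Vsig4 at 0 to 0.30 and Timd4 at 0 to 0.20 FPKM were at or near 0. Adgre1 stood at 0.34 to 1.12 and Csf1r at 0.24 to 0.96 FPKM. C1qa, C1qb and C1qc stood at 0.22 to 1.58, 0.36 to 1.30 and 0.22 to 1.85 FPKM. The Kupffer cell marker Cd5l stood at 1.16 to 3.94, Marco at 0.42 to 4.59 and Lyz2, a lysozyme of myeloid cells, at 9.15 to 16.25 FPKM. Cd68, which other cells also express, made up most of the list, whose sum was 219 to 253 FPKM in PA and 140 to 145 FPKM in LA. Without Cd68 the sums were 20.8 to 23.6 FPKM in PA and 18.8 to 18.9 FPKM in LA. In bulk RNA, a change in the number of cells of a type and a change in RNA per cell cannot be told apart.

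Tlr1 and Tlr6 are neighbouring genes with near-identical stretches, which bears on how their reads were assigned. Both lie on the minus strand of chromosome 5 (GRCm38), Tlr1 at 64924679-64933563 and Tlr6 at 64952031-64960097. Their coding sequences were 74.1% identical, and 19.5% of the 31-base words of Tlr1 transcripts also occurred in Tlr6. The 289-base windows below hold the longest identical run, 229 bases, in coding sequence of exon 4 of Tlr1 and exon 2 of Tlr6, and the capitals mark the 2 bases that differ.
Tlr1, chr5:64925507-64925795, minus strand: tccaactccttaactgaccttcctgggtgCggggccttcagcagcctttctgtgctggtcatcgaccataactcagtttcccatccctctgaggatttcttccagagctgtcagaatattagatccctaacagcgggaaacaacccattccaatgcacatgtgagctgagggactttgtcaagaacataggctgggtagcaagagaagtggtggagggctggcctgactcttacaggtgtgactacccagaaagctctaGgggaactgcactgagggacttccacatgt
Tlr6, chr5:64953798-64954086, minus strand: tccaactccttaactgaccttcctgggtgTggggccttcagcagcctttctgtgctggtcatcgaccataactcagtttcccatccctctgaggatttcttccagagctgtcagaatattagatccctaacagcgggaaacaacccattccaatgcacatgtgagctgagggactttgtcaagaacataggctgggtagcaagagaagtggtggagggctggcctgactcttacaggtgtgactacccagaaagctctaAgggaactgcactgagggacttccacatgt

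Promoter sequences are shown for Tlr2 and Ticam1, a receptor and an adaptor that were called in comparisons below. They come from the RefSeq table for GRCm38 and run from 250 bases before the start site to 50 bases after it, with matches to the searched motifs in capitals.
Tlr2, chr3:83841559-83841858, minus strand: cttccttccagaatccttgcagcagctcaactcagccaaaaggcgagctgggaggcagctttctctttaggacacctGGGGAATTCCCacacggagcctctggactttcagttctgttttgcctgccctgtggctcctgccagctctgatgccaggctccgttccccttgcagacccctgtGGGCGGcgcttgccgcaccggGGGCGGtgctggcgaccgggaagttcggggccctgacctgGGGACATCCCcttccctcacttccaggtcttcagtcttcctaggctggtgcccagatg
Ticam1, chr17:56276718-56277017, minus strand: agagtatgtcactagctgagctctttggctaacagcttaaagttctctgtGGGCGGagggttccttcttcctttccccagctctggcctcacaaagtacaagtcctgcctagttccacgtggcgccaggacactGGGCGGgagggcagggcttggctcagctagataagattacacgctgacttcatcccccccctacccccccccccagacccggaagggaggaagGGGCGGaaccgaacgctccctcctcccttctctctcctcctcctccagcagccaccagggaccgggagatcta
The Tlr2 window held 3 matches to the 10-base NF-kB consensus, beginning 173, 172 and 8 bases before the start site, and the first 2 of them overlap. It also held 2 matches to the GC box GGGCGG, 69 and 48 bases before the start site. The Ticam1 window held GC boxes 200, 116 and 23 bases before the start site and no match to the NF-kB consensus. Among members with a promoter in the table, Tlr3 also held the NF-kB consensus. Neither window contained the AP-1 motif TGANTCA. Of 32544 promoters of this length, 8.5% held the NF-kB consensus, 35.9% the GC box and 7.8% the AP-1 motif on either strand. A match is only a match of letters. The motifs were chosen after the expression values were known.

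Tlr2 (NCBI gene 24088) lies at chr3:83836272-83841767, Tlr4 (21898) at chr4:66827584-66930284, Myd88 (17874) at chr9:119335934-119341411 and Ticam1 (106759) at chr17:56269319-56276786 in GRCm38.

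Expression levels of the 10 genes spread widely. Cd14 was the highest, with a mean of 31.6 FPKM over the 10 libraries, at the 82.2 percentile of tested genes. Ly96 (21.3 FPKM) and Myd88 (16.9 FPKM) followed. Tlr2 (7.04 FPKM), Ticam1 (6.78 FPKM), Tlr5 (6.09 FPKM) and Tlr3 (5.41 FPKM) lay near the middle of all tested genes, and Tlr4 (1.45 FPKM) lay at the 25.0 percentile. Tlr6 (0.116 FPKM) and Tlr1 (0.109 FPKM) rested on few reads. The co-receptors of TLR4 were thus measured at higher levels than the receptor itself in every library.

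The top of the order was shared by the groups. In all 5 groups the highest mean FPKM was that of Cd14, followed by Ly96 and then Myd88. In LA the ranges of Cd14 and Ly96 overlapped, as did those of Ly96 and Myd88, and in PA those of Ly96 and Myd88 overlapped. The middle of the order was less fixed. Ticam1 came next after Myd88 in Vehicle, where its range overlapped that of Tlr5, but in LA it lay below Tlr2, Tlr3 and Tlr5.

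**Figure D1:**
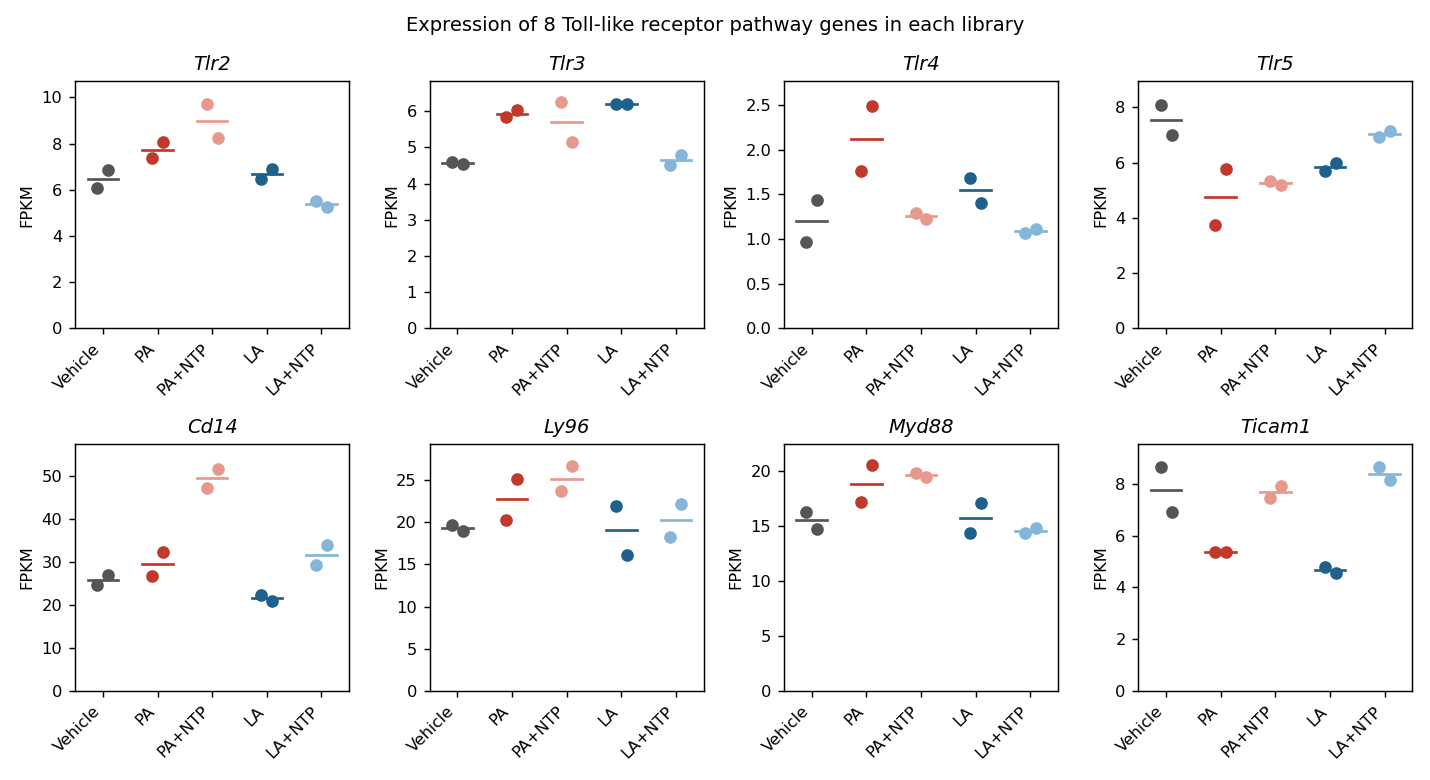
FPKM (y axis, from 0) of 8 members in each of the 10 libraries, by group (x axis); points are libraries and short lines are group means of 2. Cd14 was highest in the PA+NTP libraries (47.2 and 51.7 FPKM) and Ticam1 was lowest in the LA libraries (4.80 and 4.55 FPKM).

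Palmitate was first compared with linoleate. None of the 10 genes passed the test, which required an adjusted p under 0.05 and a fold of at least 1.5 in edgeR's quasi-likelihood fit, and 3.23% of all tested genes passed it. In the same fit, 3 members had an unadjusted p under 0.05 (Tlr4, Cd14 and Myd88), as did 3492 of the 14097 tested genes, and DESeq2 and limma also gave 0 calls. The median log2 fold change of the 10 was 0.23, against 0.01 over all tested genes. Cd14 alone met the adjusted p criterion, which 11.1% of tested genes met.

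Among the receptors, Tlr2, the lipoprotein receptor, measured 7.37 and 8.08 FPKM in the PA libraries and 6.45 and 6.89 FPKM in the LA libraries. The groups did not overlap, and the log2 fold change of PA over LA was 0.21 ± 0.10 (SE; adjusted p = 0.211). Tlr4, the lipopolysaccharide receptor, measured 1.76 and 2.49 FPKM in PA and 1.69 and 1.40 FPKM in LA. Its lowest PA library lay just above the highest LA library, and its log2 fold change was 0.47 ± 0.20 (SE; adjusted p = 0.156). The 95% interval of that log2 difference, 0.04 to 0.90, includes folds above the threshold of 1.5.

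Tlr5, the flagellin receptor, stood at 3.74 and 5.77 FPKM in PA and at 5.69 and 5.98 FPKM in LA, so that PA replicate 2 fell inside the LA range. Its log2 fold change was -0.25 ± 0.14 (SE; adjusted p = 0.305). Without PA replicate 2 the log2 value was -0.65 and passed the test (adjusted p = 0.0207). Tlr3, the endosomal receptor for double-stranded RNA, measured 5.83 and 6.04 FPKM in PA and 6.20 and 6.21 FPKM in LA. Its log2 difference of -0.07 had a 95% interval of -0.27 to 0.12. Given the spread between these libraries, which may be technical, that interval stays inside a 1.5-fold change in either direction.

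The co-receptor Cd14 measured 26.9 and 32.3 FPKM in PA and 22.2 and 20.8 FPKM in LA, with both PA libraries above both LA libraries. Its log2 fold change of 0.46 ± 0.10 (SE) had an adjusted p of 0.0104, a fold of 1.38 that stayed under the threshold. That adjusted p was 0.18 without PA replicate 2, 0.0519 without LA replicate 1 and 0.0897 without LA replicate 2. Cd68 (log2 fold change 0.78) and Marco (2.34) were also higher in PA than in LA and the Kupffer cell marker Cd5l (-1.11) was lower, the other 7 tested macrophage markers being uncalled. The part of macrophage RNA in the Cd14 difference was not tested. Ly96 measured 20.3 and 25.1 FPKM in PA and 21.9 and 16.2 FPKM in LA, with overlapping groups and a log2 fold change of 0.26 ± 0.16 (SE; adjusted p = 0.341).

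Of the adaptors, Myd88, which links most TLRs and the interleukin-1 receptors to IRAK kinases, measured 17.2 and 20.5 FPKM in PA and 14.4 and 17.1 FPKM in LA. The groups were separated by a narrow gap, and the log2 fold change was 0.27 ± 0.10 (SE; adjusted p = 0.103). Ticam1 measured 5.36 FPKM in both PA libraries and 4.80 and 4.55 FPKM in LA, for a log2 fold change of 0.18 ± 0.11 (SE; adjusted p = 0.353). Counting members whose FPKM did not overlap, 5 were higher in PA (29.0% of tested genes were) and 2 were lower (22.5% were). The lower ones were Tlr3 and Tlr6, of which Tlr6 rested on few reads. With 2 libraries against 2, an exact two-sided permutation test of a single gene cannot go below p = 0.333.

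The same contrast was then made in the presence of NTP. In PA+NTP against LA+NTP, 2 of the 10 members rose, Tlr2 and Cd14, and none fell, against 3.82% of all tested genes called in either direction. Tlr2 measured 9.69 and 8.24 FPKM in PA+NTP and 5.51 and 5.25 FPKM in LA+NTP, for a log2 fold change of 0.71 ± 0.10 (SE; adjusted p = 2.358e-04). Cd14 measured 47.2 and 51.7 FPKM in PA+NTP and 29.4 and 34.0 FPKM in LA+NTP, for a log2 fold change of 0.61 ± 0.10 (SE; adjusted p = 6.887e-04). Neither gene's groups overlapped. Leaving out any 1 library kept the Tlr2 call, while the log2 value of Cd14 dropped under the fold threshold without PA+NTP replicate 2 (0.52) or LA+NTP replicate 1 (0.51).

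Myd88 (19.8 and 19.4 against 14.3 and 14.8 FPKM) and Tlr5 (5.33 and 5.20 against 6.94 and 7.15 FPKM) were also separate between PA+NTP and LA+NTP. Their log2 fold changes of 0.40 (adjusted p = 0.0116) and -0.45 (adjusted p = 0.0349) stayed under the fold threshold. In non-overlapping FPKM, 7 members were higher in PA+NTP (32.5% of tested genes were) and 2 were lower (23.4% were). Tlr1, which rested on few reads, is counted among the higher. Of the 10 tested macrophage markers 2 rose and 2 fell here, Marco (2.21 on the log2 scale) and Adgre1 (1.41) among those higher and Cd5l (-0.78) and C1qc (-0.99) lower, with Cd68 (0.54) under the fold threshold. The list summed to 282 to 314 FPKM in PA+NTP and 198 to 211 FPKM in LA+NTP. Without Cd68 the sums were 23.2 to 27.2 and 20.5 to 21.1 FPKM. Their part in the Tlr2 and Cd14 differences was not tested. Of 8 hepatocyte markers, 6 fell in PA+NTP against LA+NTP (2.45% of tested genes did) and 3 fell in PA against LA (2.04% did). Their median log2 fold changes were -0.82 and -0.54.

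All 4 palmitate libraries were also set against all 4 linoleate libraries, a contrast chosen after seeing the data. Tlr2 and Myd88 were higher in every palmitate library than in every linoleate library, which held for 5.45% of tested genes, and no member was lower in this way (4.60% of tested genes were). In this contrast no member passed the full test with edgeR, DESeq2 or limma, and 4.48% of tested genes passed the full test with edgeR (1.55% higher and 2.92% lower). An unadjusted p under 0.05 was found for 6 members and for 4931 of the 14097 tested genes. The adjusted p criterion, which 23.6% of tested genes met, was met by 4 members, none of which reached the fold. These were Cd14 (log2 fold change 0.53 ± 0.07, SE), Tlr2 (0.46 ± 0.07), Myd88 (0.33 ± 0.07) and Tlr5 (-0.35 ± 0.10), with adjusted p of 8.014e-05, 2.569e-04, 0.00283 and 0.0177. Cd14 passed the fold threshold as well without LA+NTP replicate 2 (0.59).

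**Figure D2:**
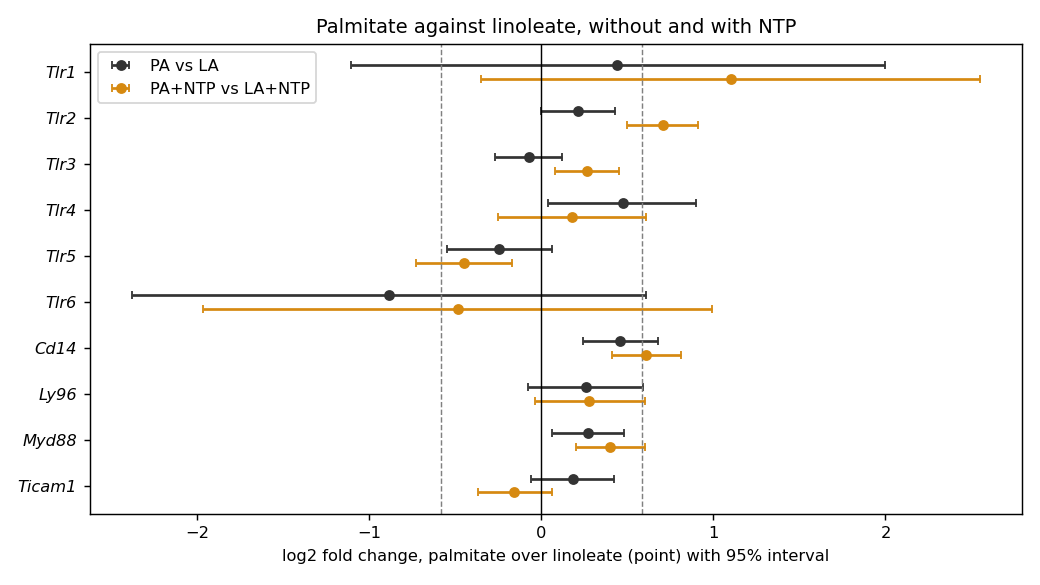
Log2 fold change of palmitate over linoleate (x axis) for the 10 members, without NTP (dark) and with NTP (orange); bars are 95% intervals from the edgeR fit and dashed lines mark a fold of 1.5. Tlr2 (0.71) and Cd14 (0.61) with NTP lie beyond the dashed line, and the intervals of Tlr1 and Tlr6 are the widest.

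The reads of Tlr1 and Tlr6 were few and could not be separated with certainty. Their expected counts summed to a whole number within 0.015 in 10 of 10 libraries, although the single values were fractions in most. Together the genes had 10 and 11 reads in Vehicle, 11 and 23 in PA, 16 and 24 in PA+NTP, 28 and 15 in LA, and 12 and 34 in LA+NTP. Tlr1 alone passed the test in PA against Vehicle, with 21 against 3 reads and a depth-corrected ratio of 6.26 (95% counting interval 1.87 to 32.8). With the reads of both genes summed, the log2 fold change in that contrast was 0.57 (adjusted p = 0.388), and no contrast called the sum. The Tlr1 call was also lost without any 1 of 7 libraries (Vehicle replicate 2, PA replicate 1, PA+NTP replicate 2 and the 4 linoleate libraries). In PA against LA the log2 value of Tlr1 was 0.44 and that of the sum -0.18 (adjusted p = 0.859), so no direction is given for either gene.

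**Figure D3:**
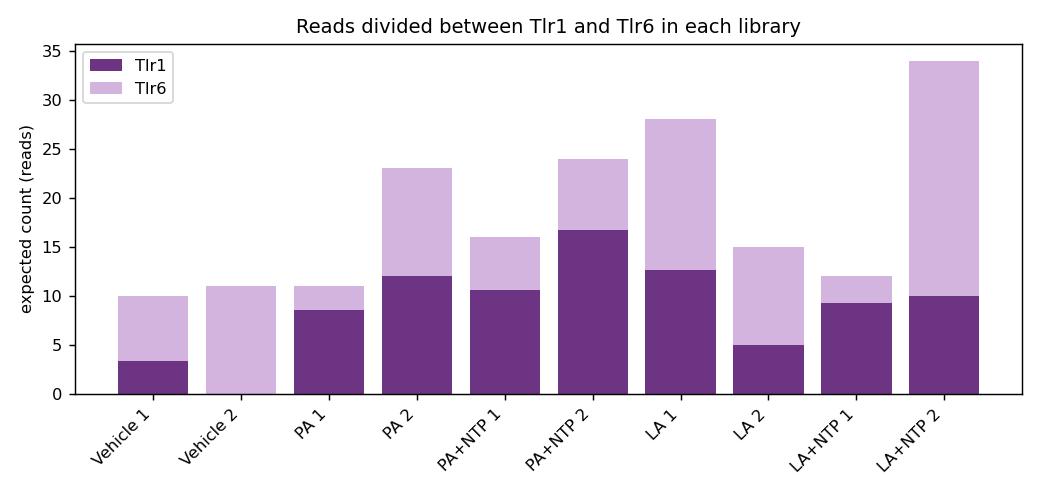
Expected counts (y axis, reads) of Tlr1 (dark) and Tlr6 (light) stacked for each library (x axis). The sums run from 10 to 34 reads, and Vehicle replicate 2 had all 11 assigned to Tlr6.

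Each fatty acid was compared with Vehicle. The 2 contrasts share the Vehicle libraries, and their calls were not tested against each other. In PA against Vehicle, Tlr1 and Tlr4 were called higher among the 10. With the reads of Tlr1 and Tlr6 summed the log2 value was 0.57 (adjusted p = 0.388 in edgeR's test), so no direction is given for Tlr1. Of all tested genes, 14.9% were called (6.00% higher and 8.92% lower) and 45.5% met the adjusted p criterion alone. In non-overlapping FPKM, 6 members were higher (33.4% of tested genes were) and 3 lower (38.9% were). Tlr1 is counted among the higher and Tlr6 among the lower, although their reads could not be separated with certainty. Tlr4 measured 0.97 and 1.44 FPKM in Vehicle and 1.76 and 2.49 FPKM in PA, for a log2 fold change of 0.87 ± 0.21 (SE; adjusted p = 0.00353). The groups did not overlap, but the call was lost without Vehicle replicate 1 (0.63, adjusted p = 0.0507) or PA replicate 2 (0.57, adjusted p = 0.105). Tlr5 measured 8.07 and 7.00 FPKM in Vehicle, above both PA libraries, and its log2 fold change of -0.57 (adjusted p = 0.00452) was just short of the fold threshold. It passed with DESeq2 (-0.59, adjusted p = 6.437e-04), and also without Vehicle replicate 2 (-0.68) or PA replicate 2 (-0.97).

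In LA against Vehicle, 10.6% of tested genes were called (3.53% higher and 7.11% lower) and 41.3% met the adjusted p criterion alone. Among the members only Ticam1 was called. In non-overlapping FPKM, 2 members were higher (31.6% of tested genes were) and 3 lower (39.2% were). The higher ones were Tlr3 and Tlr1, for which no direction is given. Ticam1 measured 8.64 and 6.92 FPKM in Vehicle and 4.80 and 4.55 FPKM in LA, for a log2 fold change of -0.68 ± 0.11 (SE; adjusted p = 2.18e-04). Both LA libraries lay below both Vehicle libraries, and without Vehicle replicate 1 the log2 value was -0.52, short of the fold threshold. In PA the same gene differed from Vehicle by -0.50 on the log2 scale (adjusted p = 0.00206), and it passed the test without Vehicle replicate 2 (-0.66). The log2 fold change of Tlr3 was 0.42 in PA and 0.49 in LA (adjusted p = 0.00245 and 7.718e-04), under the fold threshold in both, and with the trend with base composition described below removed it was 0.01 and 0.06 (adjusted p = 0.968 and 0.717).

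Pretreatment with NTP was compared with each fatty acid alone. In PA+NTP against PA, where 13.9% of tested genes were called (8.74% higher and 5.11% lower) and 44.7% met the adjusted p criterion alone, Cd14 rose and Tlr4 fell. In non-overlapping FPKM, 3 members were higher (38.2% of tested genes were) and 1 lower (29.4% were). Cd14 measured 47.2 and 51.7 FPKM with NTP and 26.9 and 32.3 FPKM without it, a log2 fold change of 0.67 ± 0.10 (SE; adjusted p = 8.395e-05). Without PA replicate 1 or PA+NTP replicate 2 its log2 value was 0.56 or 0.57, just under the threshold. Tlr4 measured 1.29 and 1.23 FPKM with NTP, below both PA libraries, a log2 fold change of -0.84 ± 0.20 (SE; adjusted p = 0.00354). Without PA replicate 2 that call was lost (-0.55, adjusted p = 0.113). Ticam1, at 7.44 and 7.91 FPKM with NTP against 5.36 FPKM in both PA libraries, met the adjusted p criterion without the fold (0.46 ± 0.11, SE; adjusted p = 0.00303).

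In LA+NTP against LA, 19.3% of tested genes were called (11.7% higher and 7.57% lower) and 51.5% met the adjusted p criterion alone. Ticam1 alone of the members rose. In non-overlapping FPKM, 3 members were higher (41.3% of tested genes were) and 4 lower (34.3% were). Tlr6, which rested on few reads, is counted among the lower. Ticam1 measured 8.64 and 8.16 FPKM with NTP and 4.80 and 4.55 FPKM without it, a log2 fold change of 0.80 ± 0.10 (SE; adjusted p = 2.145e-05). Cd14 (0.52), Tlr2 (-0.35), Tlr3 (-0.46) and Tlr4 (-0.55) met the adjusted p criterion without the fold in this contrast. Tlr4 passed the whole test without LA replicate 2 (-0.68) and Cd14 without LA+NTP replicate 1 (0.62). The effect of NTP under PA minus that under LA was tested directly, and 0 of 14097 genes passed at an adjusted p under 0.05 (1029 at an unadjusted p under 0.05). Among the members, Tlr2 (0.50), Tlr3 (0.34) and Ticam1 (-0.34 on the log2 scale) had an unadjusted p under 0.05, and DESeq2 and limma called no member either.

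A base composition trend ran with the groups and moved several of these values. The rank correlation across genes between GC content and the deviation of a gene's log2 level from its mean over the libraries was 0.426 and 0.39 in Vehicle, 0.409 and 0.346 in PA+NTP, and 0.576 and 0.537 in LA+NTP. It was -0.473 and -0.484 in PA and -0.574 and -0.568 in LA, so both libraries of a group always agreed in sign. Genes are not independent replicates, and the trend and the treatments cannot be told apart. Among the members, Tlr4 (39.4% GC), Tlr3 (40.0%) and Ly96 (40.1%) are at the low end, and Ticam1 (56.4%) is at the high end.

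With the trend removed from each library, the log2 fold change of Tlr4 in PA against Vehicle was 0.44 (adjusted p = 0.12) and in PA+NTP against PA -0.40 (adjusted p = 0.155). That of Ticam1 was -0.36 in LA against Vehicle (adjusted p = 0.0331) and 0.40 in LA+NTP against LA (adjusted p = 0.0117), and that of Cd14 in PA+NTP against PA was 0.55 (adjusted p = 0.00111). None of these then passed the full test. Tlr5 in PA against Vehicle passed instead (-0.59, adjusted p = 0.00632). The Ticam1 values under palmitate, which had met the adjusted p criterion alone, no longer met it in edgeR's test. They were -0.21 in PA against Vehicle (adjusted p = 0.159) and 0.16 in PA+NTP against PA (adjusted p = 0.308). The comparisons of the fatty acids moved little, with Tlr2 at 0.70 and Cd14 at 0.64 in PA+NTP against LA+NTP, both still called, and Cd14 at 0.46 in PA against LA.

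**Figure D4:**
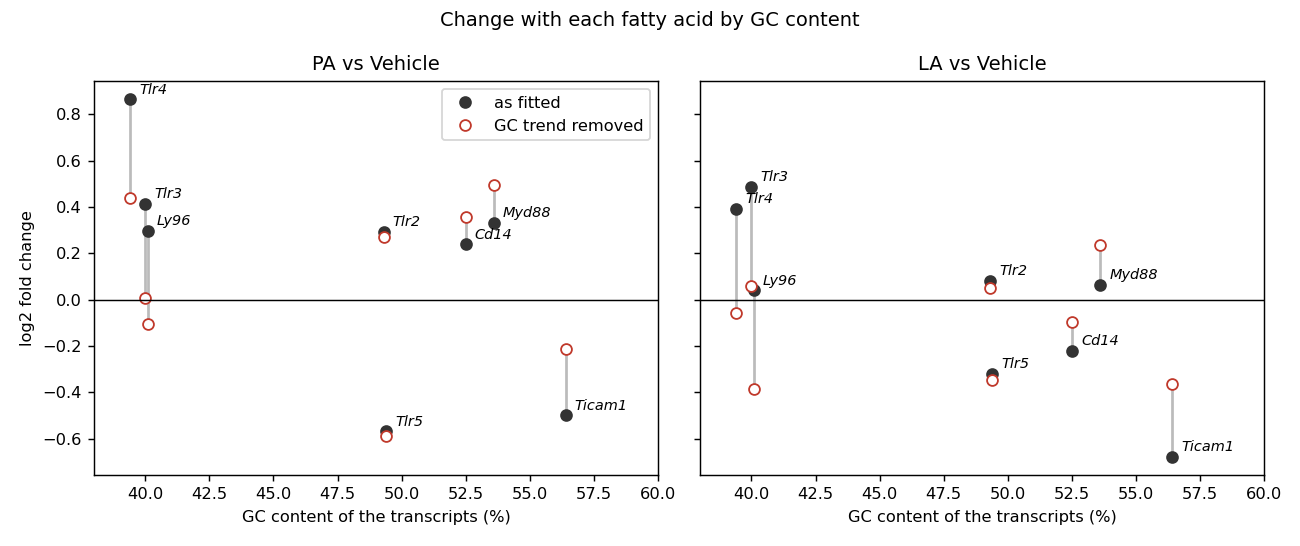
Log2 fold change against Vehicle (y axis) by GC content of the transcripts (x axis, %) for the 8 members other than Tlr1 and Tlr6, as fitted (filled) and with each library's GC trend removed (open). Tlr4 in PA moved from 0.87 to 0.44 and Ticam1 in LA from -0.68 to -0.36, while Tlr2 and Tlr5 stayed close to their fitted values.

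The rest of the pathway was read from 9 lists of 59 other genes, 54 of which were tested. The lists were chosen with earlier results of these data known, so their counts beside those of all tested genes are a description only. In PA against LA, 9 of the 54 rose and 0 fell in edgeR's test (5 more were higher and none lower by adjusted p alone), where 1.18% of all tested genes were called higher and 2.04% lower. Their median log2 fold change was 0.05, against 0.01 over all tested genes. None of the 3 tested other receptors, 6 accessory genes, 3 other TIR adaptors, 3 receptors that share Myd88, 7 IKK and NF-kB genes or 3 interferon regulatory factors was called. The calls lay in the kinases (1 of 14), the negative regulators (2 of 7) and the target genes (6 of 8 tested), the targets having a median log2 fold change of 1.72.

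Of the upstream genes, Hsp90b1 encodes a chaperone required to fold most TLRs. It met the adjusted p criterion at a log2 fold change of 0.42 in PA against LA (adjusted p = 2.672e-04). Cd36, a fatty acid transporter that also acts as a co-receptor, had a value of -0.02 (adjusted p = 0.851). The bridging adaptor Tirap (-0.04) and the adaptor Sarm1 (-0.17) were uncalled. The interleukin-1 receptor chains Il1r1 (0.03) and Il1rap (0.00), and Tlr13 (-0.06) and Tlr7 (0.95, SE 0.64), were also uncalled. So were Irak1 (0.00), Tab2 (-0.12), Rela (-0.02), Nfkb2 (0.19), Irf3 (-0.04) and Irf7 (-0.05), all log2 fold changes. Sarm1, Tlr13 and Tlr7 were measured at low means of 0.128, 0.287 and 0.1 FPKM, so a lack of a call there says little.

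Ikbke, a kinase of the TRIF branch that is itself induced by NF-kB, measured 42.0 and 40.9 FPKM in PA and 22.2 and 21.2 FPKM in LA. Its log2 fold change of 0.92 ± 0.07 (SE) had an adjusted p of 4.806e-06. Irak3, an inhibitory IRAK, measured 6.52 and 5.55 FPKM in PA and 3.01 and 3.41 FPKM in LA (log2 fold change 0.88, adjusted p = 4.874e-04). Tnfaip3, which encodes the NF-kB inhibitor A20, measured 10.8 and 8.75 FPKM in PA and 6.44 and 5.60 FPKM in LA (0.65, adjusted p = 9.127e-04). All 3 were separate between the groups. Without PA replicate 1 (0.51) or LA replicate 2 (0.56) Tnfaip3 lay under the fold threshold. Nfkbia (0.40, adjusted p = 0.00152), which encodes IkB-alpha, met the adjusted p criterion alone, and Dusp1 (-0.20) did not.

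Among the target genes, the chemokine gene Ccl2 measured 393 and 411 FPKM in PA and 169 and 162 FPKM in LA, a log2 fold change of 1.27 ± 0.06 (SE; adjusted p = 3.697e-08). Cxcl2, a neutrophil chemokine gene, measured 3.85 and 3.35 FPKM in PA and 1.04 and 1.03 FPKM in LA (1.76, adjusted p = 6.406e-04). The cytokine gene Tnf measured 1.46 and 0.97 FPKM in PA and 0.27 and 0.37 FPKM in LA (1.88, adjusted p = 0.00803). In each of these genes every PA library lay above every LA library. The Tnf call was lost without LA replicate 1 (adjusted p = 0.0898).

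Il6 and Il1b rested on few reads. Il6 had 85 reads in PA and 3 in LA, a depth-corrected ratio of 30.1 (95% counting interval 9.96 to 149). Il1b had 71 reads in PA and 0 in LA. Taking a floor of 3 counts over the LA group gave a depth-corrected ratio of 25.1, without an interval for counting error. Ccl5 (1.67, adjusted p = 0.0447) passed narrowly, and lost the call without any 1 of PA replicate 1, PA replicate 2, LA replicate 1, LA replicate 2, LA+NTP replicate 1 or LA+NTP replicate 2 (adjusted p = 0.0532 to 0.243). Cxcl1 (0.48, adjusted p = 0.00112) met the adjusted p criterion alone and Cxcl10 (-0.54, adjusted p = 0.0853) did not.

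With NTP, 5 of the 8 targets rose in PA+NTP against LA+NTP and Cxcl10 fell (-0.74, adjusted p = 0.00838), against 1.38% and 2.45% of tested genes. Il6 had 55 and 2 reads there, a ratio of 41.3 (10.9 to 349). In LA against Vehicle 0 of the 8 targets passed the test in edgeR, 1 having an adjusted p under 0.05, and 3.53% of tested genes were called higher and 7.11% lower. In PA against Vehicle 6 rose and 1, Cxcl10, fell, against 6.00% and 8.92% of tested genes. Macrophage markers ran both ways between the fatty acids, as given above, and their part in the target genes was not tested. Their median log2 fold change was -0.21 in PA against LA and -0.18 in PA+NTP against LA+NTP. Over all tested genes it was 0.01 in both.

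**Figure D5:**
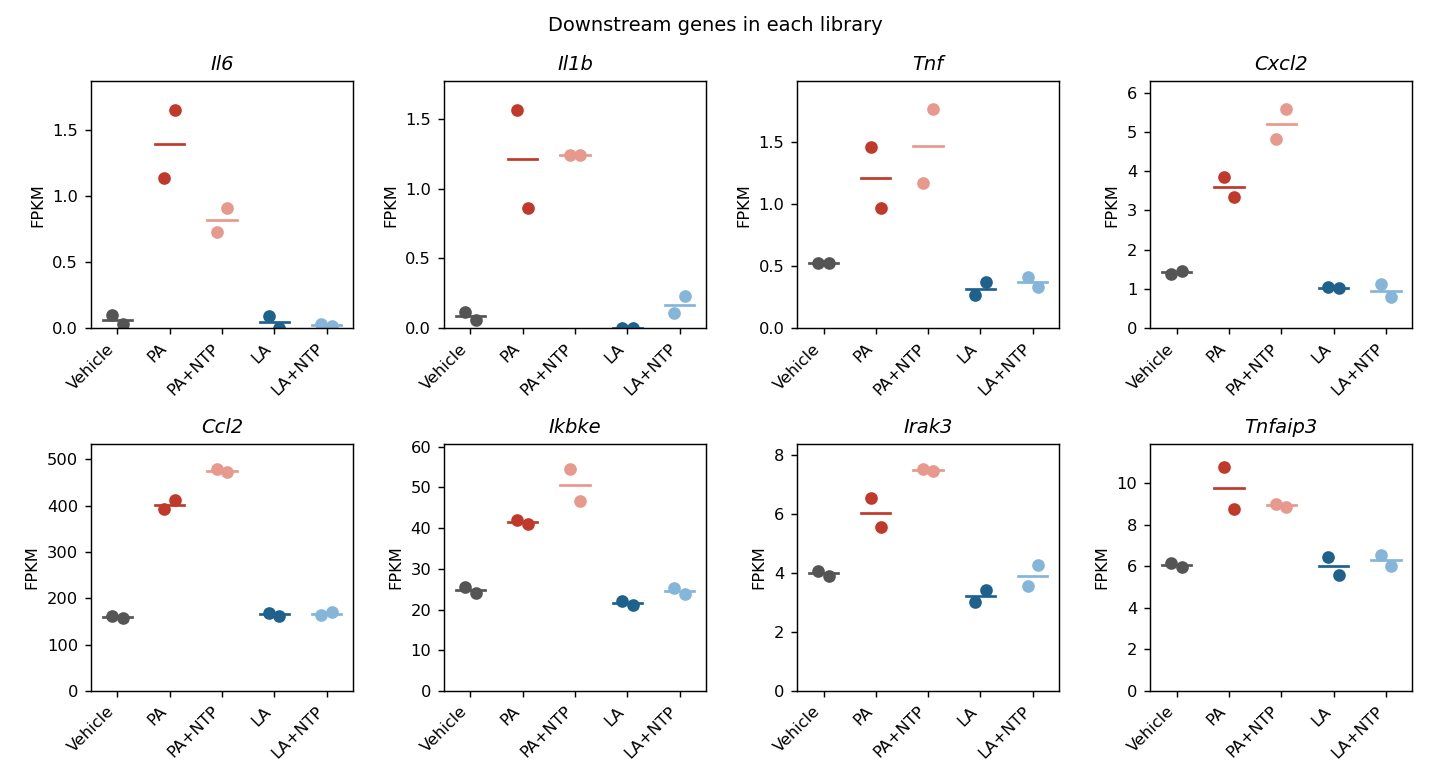
FPKM (y axis, from 0) of 8 downstream genes in each of the 10 libraries, by group (x axis); points are libraries and short lines are group means of 2. The 8 genes were picked from those called higher in PA against LA. In all 8 panels the PA and PA+NTP libraries lie above the LA and LA+NTP libraries, as with Ccl2 at 393 FPKM or more against 170.2 FPKM or less. Such a separation held for 5.45% of tested genes. The target Cxcl10, at 6.73 to 11.03 FPKM in PA and 10.94 to 13.09 FPKM in LA, is not drawn.

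Among members with a mean of at least 1 FPKM, Tlr4 had the largest log2 difference between PA and LA, and the 3 genes whose pattern was most like it were sought among 11108 genes. These were Cep19 (Pearson r = 0.964), Nudt7 (r = 0.952) and Rbm41 (r = 0.951), over the same 10 libraries. The libraries share the GC trend described above, and the values are a description only.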

How the data were processed

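RNA from 10 libraries of primary hepatocytes was sequenced at the Beijing Genomics Institute. The submitters' processing notes name HISAT, Bowtie2, RSEM and the build mm10, with no versions given in the sources used here. For each library the authors deposited expected counts per gene, which are RSEM estimates without normalization between libraries, and FPKM values, which are scaled by transcript length and library size. RSEM divides reads that fit several genes, so members with shared sequence can exchange reads. Whether counting used strand is not given in the sources used here. Exons of Tlr3 and Myd88 overlap genes on the opposite strand (Gm45542 by 117 bases and Acaa1a by 223 bases).

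NCBI gene identifiers were joined to symbols. Expected counts were rounded and fitted for all 10 libraries and 14097 genes with edgeR 4.0.16 (TMM scaling, filterByExpr, glmQLFit, glmQLFTest) in R 4.3.3. P-values were adjusted by Benjamini-Hochberg over all tested genes, and a gene was called at an adjusted p under 0.05 and a fold of at least 1.5. The biological coefficient of variation was 0.0682. The exact permutation limit, counting intervals (95%, counting error only) and floors (3 counts) are stated where used. DESeq2 1.42.0 and limma 3.58.1, on log2(FPKM + 1) and log2(FPKM + 0.1), were alternatives, as were other scalings, no filter, a fit of only the groups compared, a replicate block, a GC trend removed by loess (span 0.4) and leaving out each library. NOISeq, which the study used, was not run. On simulated data for PA against LA over 14097 genes, 89 of 100 genes changed 4-fold and 67 of 100 changed 2-fold were recovered, with 8 false calls. Named pathway genes were all those called in PA against LA and the 2 of highest mean FPKM per list. The members and lists were chosen with earlier results of these data known. Of 7 marker lists, the hepatocyte and macrophage lists are given in the report. Sinusoidal endothelial markers gave 0 calls of 7 in PA against LA, stellate cell markers 2 lower of 6, cholangiocyte markers 0 of 3, neutrophil markers 0 of 2 and lymphocyte markers 0 of 1.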

Additional observations from a re-analysis of the deposited data

Results flagged for a closer look

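The Tlr2 libraries lay in opposite directions with NTP under palmitate and under linoleate, a difference that did not pass the test. Under palmitate both NTP libraries (9.69 and 8.24 FPKM) lay above both libraries without NTP (7.37 and 8.08 FPKM), and under linoleate both NTP libraries (5.51 and 5.25 FPKM) lay below both without it (6.45 and 6.89 FPKM). The log2 difference between the effects was 0.496 (SE 0.138), with an unadjusted p of 0.00295 and an adjusted p of 0.629 in edgeR's test over all genes, so it failed the correction. No group had enough libraries for a test of outlying samples.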

How the results depend on the processing

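The count of called members depended most on the fold threshold and on the GC trend. Without the fold threshold, 1 member was called in PA against LA, 7 in PA against Vehicle, 2 in LA against Vehicle, 3 in PA+NTP against PA, 5 in LA+NTP against LA, 4 in PA+NTP against LA+NTP and 4 in the contrast of all palmitate with all linoleate libraries, and 14 pathway genes were higher in PA against LA and 14 in PA+NTP against LA+NTP. With the GC trend removed, 1 member was called in PA against Vehicle and 0 in LA against Vehicle, PA+NTP against PA and LA+NTP against LA. Limma on log2(FPKM + 1) called 1 in PA against Vehicle and 1 in PA+NTP against PA, and a fit of only the groups compared called 1 in PA against Vehicle, where Tlr1 was not tested. Leaving out 1 library gave 0 to 1 calls in PA against LA, 1 to 3 in PA against Vehicle, 1 to 2 in PA+NTP against PA, LA+NTP against LA and PA+NTP against LA+NTP, and 0 to 1 in the pooled contrast. Of the 8 tested target genes 5 to 6 were called higher in PA against LA and 5 to 6 in PA+NTP against LA+NTP when 1 library was left out, and in LA against Vehicle the 1 call was of Tlr1 in place of Ticam1 without Vehicle replicate 1. A lone library left in a group was assumed to vary like the others.

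Some single values reversed sign. Removing the GC trend turned LA+NTP against LA to 0.0695 for Tlr3 and 0.0113 for Tlr4, PA+NTP against PA from -0.12 to 0.30 for Tlr3 (adjusted p = 0.0258) and from -0.02 to 0.22 for Tlr1, LA against Vehicle from 0.39 to -0.06 for Tlr4 and from 0.04 to -0.39 for Ly96, and PA against Vehicle from 0.30 to -0.11 for Ly96. With the trend removed, Ly96 stood at 0.48 in PA+NTP against PA and at 0.57 in LA+NTP against LA (adjusted p = 0.0279 and 0.0112), under the fold threshold. Summing Tlr1 and Tlr6 gave -0.18 in PA against LA, 0.43 in PA+NTP against LA+NTP and 0.12 in the pooled contrast. Without 1 library, Tlr1 in PA against LA ranged from -0.0598 to 1.09, Tlr6 from -1.08 to 1.12 in PA+NTP against LA+NTP and from -1.01 to 0.116 in the pooled contrast, and Ticam1 in the pooled contrast from -0.0272 to 0.0428.

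Replicate numbers were taken from the labels, and deviations of same-numbered libraries correlated at -0.069 to 0.127 between groups. Such values gave no sign of pairing by these numbers. The numbers in the names of the deposited data differ from those in the labels. The correlations cannot tell whether libraries were paired by culture or mouse. With a replicate block, 0 members were called in PA against LA, 2 in PA against Vehicle and 2 in PA+NTP against LA+NTP. With the block and the GC trend removed, 1 was called in PA against Vehicle, 0 in LA against Vehicle, PA+NTP against PA and LA+NTP against LA, and Tlr3 in LA+NTP against LA was 0.0718. Depth limited Tlr1 and Tlr6, at 10 to 34 reads for both together.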
